A study of Mus musculus with 12 samples.

Results

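The genes described here are 10 neighbours of Cdkn1a on mouse chromosome 17, namely Mapk14, Kctd20, Stk38, Srsf3, Rab44, Cpne5, Ppil1, Pi16, Fgd2 and Pim1, among the 55376 gene symbols of a raw count table. They were chosen by symbol and position, at a time when earlier results of these data were known. Cdkn1a encodes p21CIP1, an inhibitor of cyclin-dependent kinases that is induced by DNA damage and holds cells in arrest, and it is the gene targeted in the double mutants of the study. DNA that surrounds a targeted gene is inherited with it, so mice bred to be homozygous for a targeted allele can keep flanking DNA of the embryonic stem cell strain in which the allele was made. The question was whether the RNA of these neighbours differed in double mutants from that in the other 2 genotypes. Sequence variants were not examined, since the table holds counts only.

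RNA was sequenced from oligodendrocytes, the myelin-forming cells of the CNS, which had been sorted from C57BL/6 mouse brains at postnatal day 40 as live cells with the surface lipid O1 and without the leukocyte marker CD45. There were 4 samples of wild-type (WT) mice, 4 of Cnp-Cre Jab1fl/fl mice and 4 of Cnp-Cre Jab1fl/fl p21CIP1-/- mice, called double mutants, and each sample held the cells of 2 brains. Jab1 (gene symbol Cops5) encodes the catalytic subunit of the COP9 signalosome, and both mutant genotypes share its deletion by a Cre recombinase under the promoter of the oligodendrocyte gene Cnp, whose activity has also been described in progenitor cells. The p21CIP1 allele is not conditional, so it was carried by all cells of the double mutants, and by the methods of the study it came from a commercial Cdkn1a knockout line which was made in another strain than C57BL/6 and then backcrossed. No group carried the p21CIP1 allele with intact Jab1. The labels give no relation between samples beyond the pooling of brains, so p-values measure the spread between these samples.

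Total counts were 61485556 to 153495112 per sample, with a median of 103095818, and levels are given as CPM, counts scaled to the normalized size of each library, or as TPM, which also divides by gene length, where genes are compared with each other. Values of a group are listed in the order of replicates 1, 3, 5 and 6 for WT, 1, 2, 3 and 4 for Cnp-Cre Jab1fl/fl and 1, 2, 3 and 5 for double mutants. The 10 markers of mature oligodendrocytes were above 3 counts in all 12 samples, with summed levels of 40500 to 98500 CPM in WT, 9040 to 34500 CPM in Cnp-Cre Jab1fl/fl and 16500 to 52300 CPM in double mutants. Markers of microglia, which the CD45 gate should remove, were also above 3 counts for 20 of 20 genes in all samples, and their sums were 122 to 363 CPM in WT, 1390 to 3580 CPM in Cnp-Cre Jab1fl/fl and 516, 1170, 25000 and 2760 CPM in double mutants. Double mutant replicate 3 stood apart with the sum of 25000 CPM, and also with 171 CPM for 13 markers of T cells, neutrophils and monocytes against 6.94 to 15.2 CPM in the other double mutants. Log2 fold changes of Fgd2, Pim1 and Pi16 in double mutants against WT and against Cnp-Cre Jab1fl/fl are therefore given with and without it.

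Cdkn1a itself (chr17:29090976-29100727, plus strand, GRCm38) was counted at 85.6, 43.5, 16.0 and 21.8 CPM in WT and at 380, 398, 397 and 639 CPM in Cnp-Cre Jab1fl/fl. In double mutants it was counted at 84.8, 104, 102 and 64.9 CPM, below each Cnp-Cre Jab1fl/fl sample and in 2 of 4 samples below the highest WT sample. Cdkn1a rose in Cnp-Cre Jab1fl/fl against WT by 3.44 ± 0.53 on the log2 scale (SE, adjusted p = 0.0044, edgeR quasi-likelihood test). Between double mutants and Cnp-Cre Jab1fl/fl the fitted log2 fold change was -2.35 ± 0.32, with an unadjusted p of 1.55e-05 and an adjusted p of 0.0916. In double mutants against WT the same edgeR test gave 1.08 ± 0.48 (unadjusted p = 0.0474, adjusted p = 0.394). Mean levels of Cdkn1a were 88.7 CPM in double mutants and 41.7 CPM in WT. Every double mutant was above all WT samples except the highest. These are counts over the whole gene, which do not tell its exons apart, so they check neither the targeting nor the genotype labels.

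The neighbours lie on both sides of Cdkn1a, and all are protein coding. On the side of lower coordinates are Mapk14 (chr17:28691329-28748406, plus strand, 342.6 kb from Cdkn1a), Kctd20 (chr17:28951950-28969549, plus strand, 121.4 kb), Stk38 (chr17:28970880-29007995, minus strand, 83.0 kb) and Srsf3 (chr17:29032628-29043373, plus strand, 47.6 kb). On the other side are Rab44 (chr17:29114145-29148980, plus strand, 13.4 kb), Cpne5 (chr17:29155556-29238167, minus strand, 54.8 kb), Ppil1 (chr17:29250803-29264186, minus strand, 150.1 kb), Pi16 (chr17:29317680-29330593, plus strand, 217.0 kb), Fgd2 (chr17:29360914-29379661, plus strand, 260.2 kb) and Pim1 (chr17:29490753-29496112, plus strand, 390.0 kb). Rab44 is thus the nearest and Pim1 the farthest of the 10. Pim1, Rab44 and Stk38 each overlap another gene of the table, with at most 95, 30 and 392 counts per sample, and since no source says whether reads were counted by strand, a part of the reads of each pair could not be told apart. The annotation also places genes over Mapk14, Kctd20, Cpne5, Ppil1 and Pi16 that were not analysed here, that of Mapk14 on the same strand.

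The members fell into a group of broadly expressed genes and a group of scarce ones in WT cells. Per length, Srsf3 had the highest level at 165 ± 16.3 TPM (SD, n = 4), followed by Ppil1 at 44.1 ± 16.0 TPM, Stk38 at 41.9 ± 14.2 TPM, Mapk14 at 25.6 ± 12.8 TPM and Kctd20 at 25.2 ± 13.8 TPM. Fgd2 at 1.04 ± 0.968 TPM, Pim1 at 0.719 ± 0.414 TPM, Rab44 at 0.428 ± 0.297 TPM, Pi16 at 0.237 ± 0.238 TPM and Cpne5 at 0.0704 ± 0.0865 TPM formed the lower end. Ppil1 exceeded Stk38 in 2 of the 4 WT samples and Mapk14 exceeded Kctd20 in 1 of them, so neither pair was ordered beyond the spread, and Fgd2 exceeded Pim1 in 2 of 4. With the length of the longest transcript in place of all exons, Stk38 moved ahead of Ppil1 and the other 8 members held their rank.

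Across the genotypes, none of the 9 members that could be tested passed an adjusted p of 0.05 in double mutants against Cnp-Cre Jab1fl/fl, in double mutants against WT, or in double mutants against the mean of both other genotypes. By the same edgeR test over 17716 genes, 0% of all genes passed in the first of these comparisons, 0.192% in the second and 0.0452% in the third. At an unadjusted p below 0.05 there were 2 of 9 members in the first (Stk38 and Rab44), where 5% of all genes had such a value, 2 in the second (Pim1 and Fgd2), where 12.4% had, and 3 in the third (Pim1, Rab44 and Stk38), where 6.01% had. DESeq2 on all 12 samples called 0, 2 (Pim1 and Fgd2) and 1 (Pim1) of the members in these comparisons, beside 0.864%, 5.24% and 0.994% of all genes, and limma-voom called 0 members, beside 0.00564%, 0.265% and 0.0113% of all genes. In Cnp-Cre Jab1fl/fl against WT, where neither group carries the p21CIP1 allele, 1 of 9 members passed, which was Fgd2, beside 7.64% of all genes, and 3 (Fgd2, Pim1 and Rab44) had an unadjusted p below 0.05, as 22.5% of all genes did. There DESeq2 called 2 members (Fgd2 and Pim1), beside 13.1% of all genes, and limma-voom called 1 (Fgd2), beside 10.8%. The levels of 0 members were without overlap between double mutants and Cnp-Cre Jab1fl/fl, where 3.22% of all genes were, or between double mutants and both other genotypes together, where 0.316% were. The comparisons share samples, so their values are set side by side and not counted as separate evidence.

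**Figure D1:**
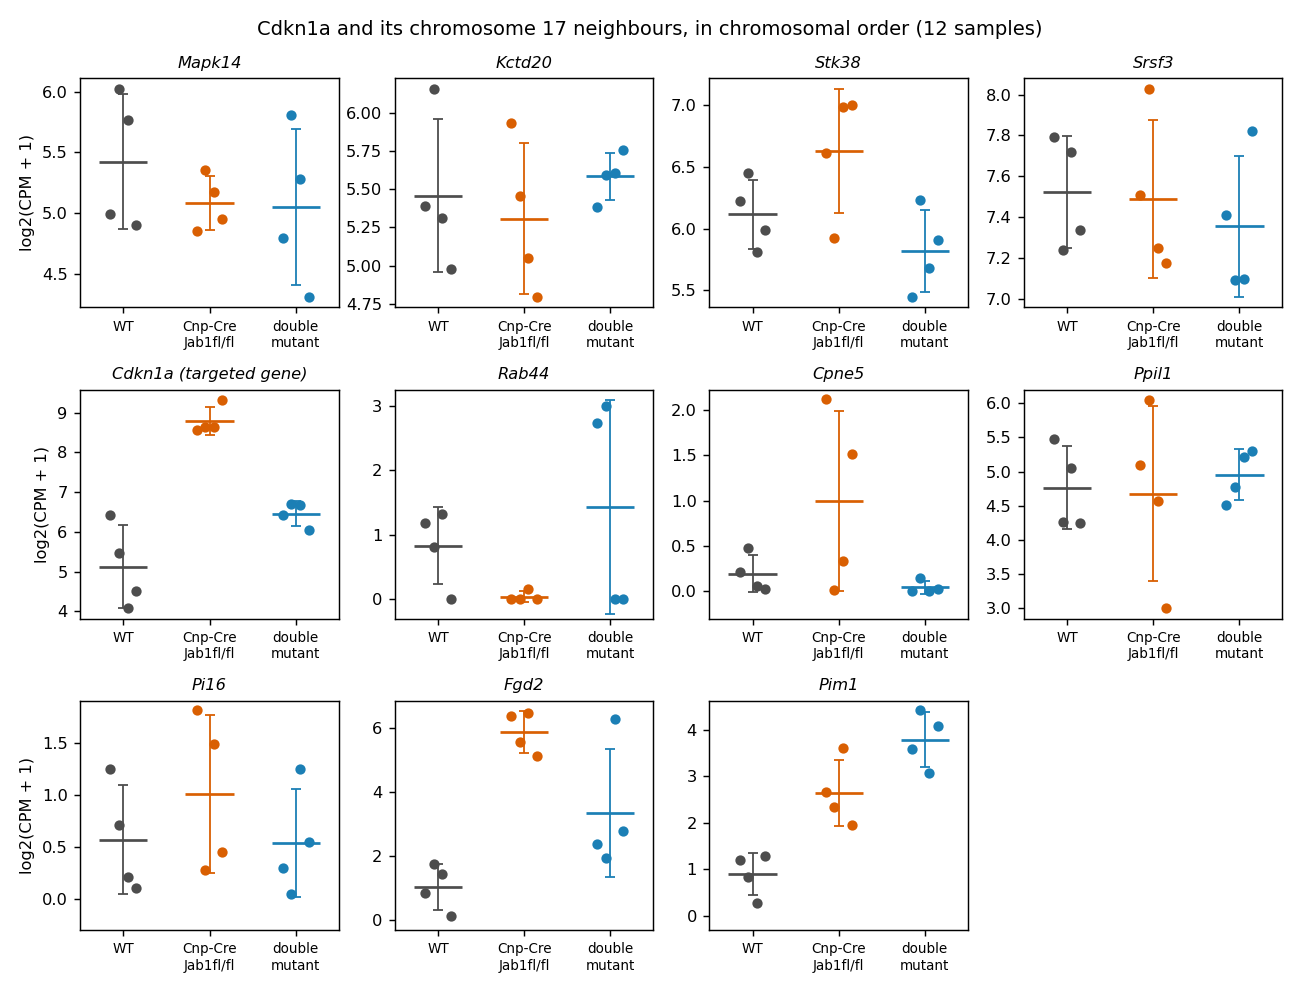
Levels of Cdkn1a and the 10 neighbours in each of the 12 samples as log2(CPM + 1), in chromosomal order; points are samples, horizontal lines group means and error bars SD (n = 4), and each panel has its own vertical scale. Fgd2 and Pim1 lie higher in both mutant genotypes than in WT, Rab44 is at 0 in 6 samples, and Mapk14, Kctd20, Srsf3 and Ppil1 overlap between all genotypes.

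Pim1 encodes a serine/threonine kinase that supports cell survival and growth and is induced by cytokine signalling through STAT factors. It had the smallest p of the members in double mutants against WT, and is also the most distant from Cdkn1a. WT samples had 1.31, 0.771, 0.218 and 1.42 CPM, Cnp-Cre Jab1fl/fl samples 5.35, 4.08, 11.3 and 2.87 CPM, and double mutants 11, 20.4, 7.40 and 15.9 CPM. Every double mutant was above every WT sample, as was every Cnp-Cre Jab1fl/fl sample, whereas Cnp-Cre Jab1fl/fl replicate 3 lay within the range of the double mutants. Means were 0.931 ± 0.554 CPM in WT, 5.89 ± 3.72 CPM in Cnp-Cre Jab1fl/fl and 13.7 ± 5.67 CPM in double mutants (SD, n = 4 each).

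Against WT, the fitted log2 fold change of Pim1 in double mutants was 3.86 ± 0.72 (95% interval 2.28 to 5.44, unadjusted p = 0.000243, adjusted p = 0.0783), a mean level 14.7-fold that of WT. Levels without overlap, higher in double mutants than in WT, were found for 4.52% of all genes tested. DESeq2 called this difference with an adjusted p of 1.39e-06, as did edgeR with all 12 samples in one fit (adjusted p = 0.0279), while leaving out single samples gave adjusted p-values of 0.0393 to 0.204. Against Cnp-Cre Jab1fl/fl the log2 fold change was 1.21 ± 0.61 (95% interval -0.12 to 2.55, adjusted p = 0.979), so an equal level and a difference of several-fold were both within the interval. Against the mean of both other genotypes it was 2.54 ± 0.56 (95% interval 1.34 to 3.74, adjusted p = 0.189), and Pim1 stood at place 43 among 17716 genes by p in that comparison. Between Cnp-Cre Jab1fl/fl and WT, the pair without the p21CIP1 allele, the log2 fold change of Pim1 was 2.66 ± 0.88 (adjusted p = 0.0937), also without overlap, as 9.9% of genes were higher in Cnp-Cre Jab1fl/fl without overlap. DESeq2 (adjusted p = 0.00171) and edgeR with all 12 samples in one fit (adjusted p = 0.0452) called this difference too.

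Fgd2 encodes an exchange factor that activates the GTPase Cdc42 and is known from antigen-presenting cells such as macrophages and B cells. Its counts were 86, 366, 170 and 8 in WT, 6386, 5546, 5893 and 2479 in Cnp-Cre Jab1fl/fl, whereas double mutants had 391, 357, 7814 and 554. As levels these were 0.782, 2.37, 1.69 and 0.0870 CPM in WT, 81.6, 46.3, 87.0 and 33.4 CPM in Cnp-Cre Jab1fl/fl, and 4.19, 2.84, 76.4 and 5.82 CPM in double mutants. Double mutant replicate 3 thus reached the range of Cnp-Cre Jab1fl/fl, whereas the other 3 double mutants lay between the 2 other genotypes without touching either.

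Fgd2 rose in Cnp-Cre Jab1fl/fl against WT by 5.65 ± 0.84 on the log2 scale (95% interval 3.82 to 7.48, adjusted p = 0.00382), and leaving out each sample in turn gave adjusted p-values of 0.00258 to 0.0158. Double mutants differed from WT by 4.17 ± 1.29 (95% interval 1.33 to 7.02, adjusted p = 0.221), and DESeq2 called this difference (adjusted p = 0.000141). Every double mutant was above every WT sample, and 4.52% of all genes were likewise higher without overlap. Without double mutant replicate 3 the log2 fold change of Fgd2 against WT fell to 1.81 ± 1.02 (adjusted p = 0.614). Against Cnp-Cre Jab1fl/fl the log2 fold change was -1.48 ± 0.95 (95% interval -3.58 to 0.62, adjusted p = 0.996), and without that replicate it was -3.83 ± 0.51 (adjusted p = 0.12). Against the mean of both other genotypes it was 1.35 ± 0.82 (adjusted p = 0.923), a contrast of log values, although the mean level was 22.3 CPM in double mutants and 31.7 CPM in the others, and without replicate 3 it turned to -1.03.

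Levels of Fgd2 and Pim1 were set beside the summed markers of microglia and of border macrophages in the same samples. The 4 Cnp-Cre Jab1fl/fl samples had marker sums of 3580, 1390, 2340 and 3550 CPM with Fgd2 at 81.6, 46.3, 87.0 and 33.4 CPM. Double mutant replicate 5 had a marker sum of 2760 CPM, within the range of Cnp-Cre Jab1fl/fl, and Fgd2 at 5.82 CPM, whereas replicate 3 had the largest sum and Fgd2 at 76.4 CPM. The 9 markers of border macrophages summed to 10.5 to 13.6 CPM in WT, 56.5, 34.4, 94.3 and 42.7 CPM in Cnp-Cre Jab1fl/fl and 10.9, 23.5, 76.5 and 26.1 CPM in double mutants. By these markers, as by Fgd2, double mutant replicate 3 lay in the range of Cnp-Cre Jab1fl/fl and the other 3 double mutants, replicate 5 included, lay below it. Of their defining markers, Lyve1 was at 0 in 9 of 12 samples and F13a1 in 10 of 12. Pim1 did not have its highest level in double mutant replicate 3, where it was at 7.40 CPM, the lowest of the double mutants. Without this sample its log2 fold change was 4.07 ± 0.72 against WT (adjusted p = 0.0757). Against Cnp-Cre Jab1fl/fl it was 1.44 ± 0.62 (adjusted p = 0.946). In bulk samples, more cells of a type and more RNA per cell cannot be told apart. The part of microglia, border macrophages or other cell types in the levels of Fgd2 and Pim1 was not tested. By Pearson's r of log2(CPM + 1) over the 12 samples, which share their genotype groups, the genes most like Fgd2 were A630001G21Rik (0.97), Inpp5d (0.96) and Gm42602 (0.96), given as a description. With summed markers on the same scale, Fgd2 had an r of 0.93 for border macrophages and 0.81 for microglia. It had 0.82 for T cells, neutrophils and monocytes, 0.76 for fibroblasts and mural cells and 0.69 for endothelial cells. Pim1 had 0.59 for T cells, neutrophils and monocytes, 0.58 for neurons and 0.57 for microglia. For mature oligodendrocytes both genes had -0.62.

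**Figure D2:**
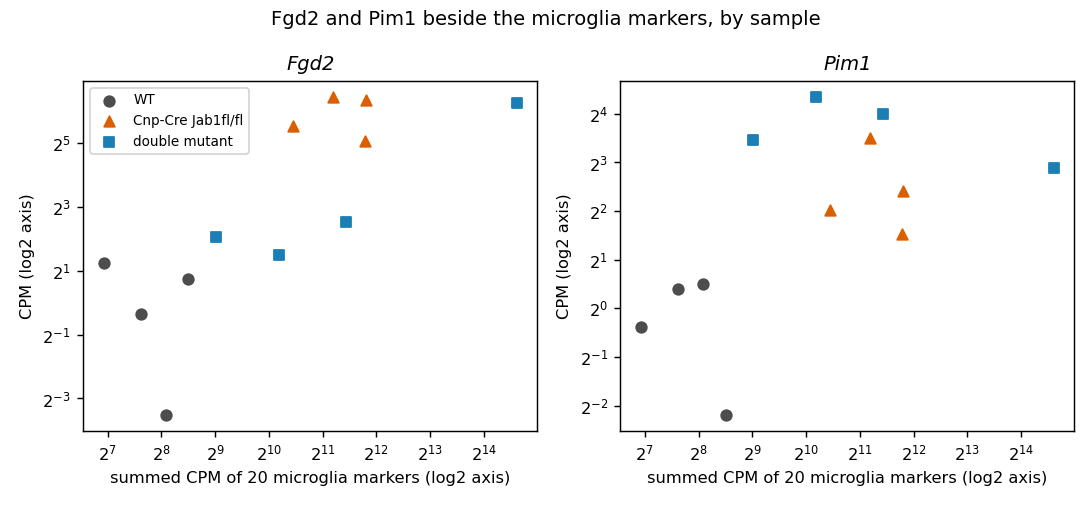
Levels of Fgd2 (left) and Pim1 (right) in CPM against the summed CPM of 20 microglia markers, both on log2 axes; each point is 1 of the 12 samples. Double mutant replicate 3, the point farthest to the right at 25000 CPM, has Fgd2 in the range of Cnp-Cre Jab1fl/fl, while its Pim1 is the lowest of the double mutants.

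Upstream DNA of Fgd2 and Pim1 is shown because these were the members whose levels separated the mutants from WT, and that of Srsf3 because its level was the highest and overlapped between all genotypes. The sequences are the reference sequence before the first annotated start, from RefSeq windows of GRCm38.p6 on the plus strand, with CG dinucleotides in capitals, and they do not show the DNA of the mice used.
Pim1, chr17:29490535-29490752: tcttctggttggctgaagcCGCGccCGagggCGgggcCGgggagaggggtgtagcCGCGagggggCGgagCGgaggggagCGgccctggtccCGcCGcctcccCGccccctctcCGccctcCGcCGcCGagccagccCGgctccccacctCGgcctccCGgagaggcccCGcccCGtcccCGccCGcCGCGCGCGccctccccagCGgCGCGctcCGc
Fgd2, chr17:29360664-29360913: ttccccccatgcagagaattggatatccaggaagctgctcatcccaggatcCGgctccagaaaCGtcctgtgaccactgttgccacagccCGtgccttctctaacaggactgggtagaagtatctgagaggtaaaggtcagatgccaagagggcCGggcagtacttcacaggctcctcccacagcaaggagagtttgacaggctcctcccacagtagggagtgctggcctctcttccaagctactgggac
Srsf3, chr17:29032410-29032627: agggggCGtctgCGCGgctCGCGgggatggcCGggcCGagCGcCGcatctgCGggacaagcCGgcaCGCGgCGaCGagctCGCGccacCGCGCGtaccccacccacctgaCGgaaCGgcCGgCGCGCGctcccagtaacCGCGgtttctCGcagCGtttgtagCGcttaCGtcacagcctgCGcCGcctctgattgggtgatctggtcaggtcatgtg

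The stretch of Pim1 held 32 CG dinucleotides in 218 bases and that of Srsf3 held 34 in 218 bases, whereas that of Fgd2 held 4 in 250 bases. In the full RefSeq windows of 300 bases, from 250 before to 50 after a start, 9 of the 10 members had at least 1 window, and Rab44 is named only. The windows of the broadly expressed members Mapk14, Kctd20, Stk38, Srsf3 and Ppil1 had 8 to 43 CG dinucleotides. Among the scarce members Cpne5 had 32, Pi16 had 3, Fgd2 had 4, the upstream window of Pim1 had 42 and a second window of Pim1 had 5. The median was 7 over all 32851 windows of the genome. The letters GGGCGG, searched on both strands, had 7 matches in the upstream window of Pim1 and none in that of Fgd2 or Srsf3, and 35.7% of all windows held a match. GAGGAA had 1 match in the window of Fgd2 and was held by 28.3% of all windows, TATAAA had 1 match in that of Srsf3 and was held by 13.6%, and TTCNNNGAA, which is its own reverse complement, had no match in either window of Pim1 and was held by 8.30%. These are matches of letters and not shown to be sites.

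Rab44 encodes a large, atypical Rab GTPase known from immune cells and osteoclasts, and is the neighbour closest to Cdkn1a. It had 139, 117, 152 and 0 counts in WT, 0, 0, 8 and 0 in Cnp-Cre Jab1fl/fl, while double mutants had 524, 876, 0 and 0. A count of 0 allows up to 3 counts, and such floors cover counting error only, since the reads carry no molecular identifiers. Double mutants were thus divided into a pair of samples at 5.61 and 6.96 CPM, above every other sample, and a pair at 0. The fitted log2 fold change against Cnp-Cre Jab1fl/fl was 6.72 ± 2.86 (95% interval 0.40 to 13.03, unadjusted p = 0.0392, adjusted p = 0.968), a value that rests on 8 counts in 1 sample and reached 11.27 without it. Against WT it was 1.81 ± 2.06 (adjusted p = 0.767), against the mean of both other genotypes 4.28 ± 1.83 (adjusted p = 0.79), and between Cnp-Cre Jab1fl/fl and WT -4.89 ± 2.11 (adjusted p = 0.196). The groups overlapped in all of these comparisons.

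Stk38 encodes the kinase NDR1, a relative of the LATS kinases of the Hippo pathway. It had 73.7, 86.7, 55.2 and 62.4 CPM in WT, 96.7, 59.8, 126 and 127 CPM in Cnp-Cre Jab1fl/fl and 42.6, 74.0, 50.4 and 59.2 CPM in double mutants. Double mutants were lowest on average, with 3 of 4 below every Cnp-Cre Jab1fl/fl sample, and overlapped with both groups. The log2 fold change was -0.85 ± 0.33 against Cnp-Cre Jab1fl/fl (95% interval -1.58 to -0.13, unadjusted p = 0.0249, adjusted p = 0.95) and -0.31 ± 0.28 against WT (95% interval -0.93 to 0.31, adjusted p = 0.7). Leaving out single samples kept the value against Cnp-Cre Jab1fl/fl between -1.04 and -0.70, with adjusted p-values of 0.337 and above, and the log2 fold change of Cnp-Cre Jab1fl/fl against WT was 0.56 ± 0.31 (adjusted p = 0.32).

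The RNA-processing members Srsf3 and Ppil1 had closely similar means in the 3 genotypes. Srsf3, a splicing factor of the SR family and the nearest neighbour on the side of lower coordinates, had 220, 150, 210 and 161 CPM in WT, 181, 260, 151 and 144 CPM in Cnp-Cre Jab1fl/fl and 169, 135, 136 and 225 CPM in double mutants. Its log2 fold change in double mutants was -0.14 (95% interval -0.83 to 0.54, adjusted p = 1) against Cnp-Cre Jab1fl/fl and -0.17 (95% interval -0.80 to 0.47, adjusted p = 0.854) against WT. Ppil1, a peptidyl-prolyl isomerase of the spliceosome, had 43.7, 18.3, 32.2 and 18.1 CPM in WT, 33.2, 65.2, 22.7 and 6.99 CPM in Cnp-Cre Jab1fl/fl and 21.8, 26.4, 36.1 and 38.4 CPM in double mutants. The range of Cnp-Cre Jab1fl/fl enclosed both other groups, and the intervals of Ppil1 were accordingly wider, at -1.30 to 1.17 against Cnp-Cre Jab1fl/fl and -0.71 to 0.95 against WT.

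Mapk14 and Kctd20 belong to kinase signalling, Mapk14 as the stress-activated kinase p38 alpha and Kctd20 as a regulator of Akt phosphorylation. Mapk14 had 30.8, 64.1, 53.5 and 29.0 CPM in WT, 27.9, 39.9, 35.2 and 29.9 CPM in Cnp-Cre Jab1fl/fl and 26.7, 55.0, 37.9 and 18.8 CPM in double mutants. Its log2 fold change in double mutants was 0.06 (95% interval -0.77 to 0.89) against Cnp-Cre Jab1fl/fl and -0.37 (95% interval -1.26 to 0.52) against WT. Kctd20 had 40.9, 70.5, 38.8 and 30.4 CPM in WT, 60.1, 42.9, 32.1 and 26.7 CPM in Cnp-Cre Jab1fl/fl and 40.7, 47.3, 47.8 and 53.1 CPM in double mutants. The double mutants were the tightest group of Kctd20 (SD 5.08 CPM) and lay inside the ranges of both others, with log2 fold changes of 0.22 (95% interval -0.49 to 0.94) and 0.06 (95% interval -0.63 to 0.74). Adjusted p-values of both genes were 0.755 or above in these comparisons.

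Pi16 and Cpne5 had low counts in all genotypes. Pi16, a peptidase inhibitor known from fibroblasts, had 151, 99, 16 and 7 counts in WT, 198, 25, 123 and 27 in Cnp-Cre Jab1fl/fl, while double mutants had 21, 4, 142 and 44. Its intervals spanned several log2 units, from -4.41 to 1.97 against Cnp-Cre Jab1fl/fl and from -3.17 to 2.98 against WT, so no difference was detectable at this depth and spread. Without double mutant replicate 3, which had most of the double mutant counts, its log2 fold change against Cnp-Cre Jab1fl/fl went from -1.22 ± 1.45 to -2.31 ± 1.65 and that against WT from -0.10 ± 1.39 to -1.23 ± 1.54 (adjusted p = 1 and 0.83). Cpne5, a copine that binds phospholipids in the presence of calcium, had 18, 60, 4 and 2 counts in WT, 262, 1, 18 and 138 in Cnp-Cre Jab1fl/fl, while double mutants had 0, 14, 0 and 2. Only 2 samples, both Cnp-Cre Jab1fl/fl, reached 1 CPM of Cpne5, and the gene was not tested in the main comparisons. Fitted without a filter, its log2 fold change in double mutants was -5.22 ± 2.23 against Cnp-Cre Jab1fl/fl (adjusted p = 0.565) and -2.21 ± 1.91 against WT (adjusted p = 0.607). The groups of Pi16 and of Cpne5 overlapped in every comparison.

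**Figure D3:**
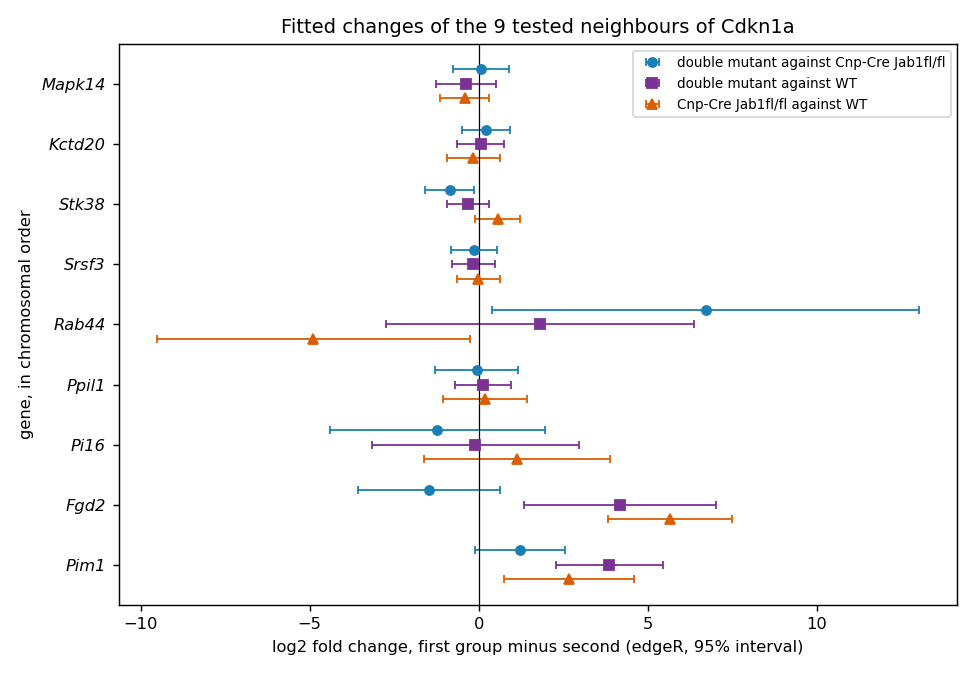
Fitted log2 fold changes (edgeR, first group minus second) of the 9 tested neighbours with 95% intervals, in chromosomal order, for 3 comparisons of genotypes. Intervals of Mapk14, Kctd20, Srsf3, Ppil1 and Pi16 include 0 throughout. Those of Fgd2 and Pim1 lie above 0 in both comparisons with WT, and that of Stk38 lies below 0 in double mutants against Cnp-Cre Jab1fl/fl. For Rab44 the interval lies above 0 in double mutants against Cnp-Cre Jab1fl/fl (0.40 to 13.03) and below 0 in Cnp-Cre Jab1fl/fl against WT (-9.52 to -0.27).

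The other genes around Cdkn1a were set beside the members. How far flanking DNA of the targeted allele reached in these mice was not examined. Genes near Cdkn1a may carry it too, so they are not an unlinked comparison. Within 1 Mb on either side, 52 further genes were listed and 26 were tested. By edgeR 0 of them passed in any comparison of the double mutants. At an unadjusted p below 0.05 there were 0 against Cnp-Cre Jab1fl/fl, 3 against WT and 2 against the mean of both. Of all genes 5%, 12.4% and 6.01% had such a value in these comparisons. DESeq2 called 2 of the 26 against WT, Fkbp5 and E230001N04Rik, where it called 5.24% of all genes, and 0 in the other comparisons of double mutants, and limma-voom called 0. The median log2 fold change was -0.10 against Cnp-Cre Jab1fl/fl and -0.16 against WT, beside 0.02 and 0.00 over all genes tested, and for the 9 members it was -0.06 and 0.06. In the bins of 1 to 2, 2 to 5, 5 to 10 and over 10 Mb along chromosome 17, with 29, 183, 149 and 402 genes tested, 0 genes passed against Cnp-Cre Jab1fl/fl and 5, 15, 3 and 27 had an unadjusted p below 0.05. Over all genes 5% had such a value. DESeq2 called 2, 1, 1 and 3 genes in these bins, beside 0.864% of all genes, and limma-voom called 0, beside 0.00564%. The genes called by DESeq2 were Ip6k3 and Rps2-ps9, AC122252.2, Trim39, and 1600014C23Rik, Stap2 and Synj2, named after their values were seen. Rps2-ps9 and Trim39 were also called by DESeq2 in double mutants against WT, and not in Cnp-Cre Jab1fl/fl against WT. The others were called in Cnp-Cre Jab1fl/fl against WT and not in double mutants against WT. Against WT 0 genes of the bins passed by edgeR, and 2, 25, 33 and 41 had an unadjusted p below 0.05, beside 12.4% of all genes. DESeq2 called 1, 11, 16 and 13, beside 5.24% of all genes. Limma-voom called 3 genes against WT, all at 5 to 10 Mb, beside 0.265% of all genes. These were C4b, H2-D1 and Tnfrsf12a, which are named after their values were seen. Limma-voom and DESeq2 also called these 3 in Cnp-Cre Jab1fl/fl against WT, where neither group carries the p21CIP1 allele. There edgeR called 0, 8, 14 and 15 genes of the bins higher and 1, 5, 1 and 9 lower, beside 7.64% of all genes. In double mutants against the mean of both other genotypes 0 genes of the bins passed by edgeR. An unadjusted p below 0.05 was found for 3, 19, 18 and 24, beside 6.01% of all genes. DESeq2 called 2, 1, 4 and 1, beside 0.994%, and limma-voom called 0, beside 0.0113%. The DESeq2 calls were Ip6k3 and Rps2-ps9, AC122252.2, then H2-D1, Psmb8, Tnfrsf12a and Trim39, and Treml2.

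Against Cnp-Cre Jab1fl/fl the neighbours with the smallest p were Ccdc167 (log2 fold change -1.58 ± 0.72, adjusted p = 0.968) at 586.6 kb and Slc26a8, an anion transporter (-2.18 ± 1.41, adjusted p = 0.996), and against the mean of both other genotypes they were Fkbp5 (1.5 ± 0.66, adjusted p = 0.821) and Ccdc167 (-1.33 ± 0.61, adjusted p = 0.824). Against WT they were Fkbp5, a co-chaperone of the glucocorticoid receptor at 573.4 kb on the other side (2.85 ± 0.90, adjusted p = 0.225), and E230001N04Rik (4.92 ± 1.85, adjusted p = 0.308). Fkbp5 had 3.42, 4.60, 0.794 and 1.5 CPM in WT, 7.05, 11.9, 26.8 and 22.5 CPM in Cnp-Cre Jab1fl/fl and 39.4, 12.4, 21.7 and 1.49 CPM in double mutants. It rose in Cnp-Cre Jab1fl/fl against WT (2.73 ± 0.69, adjusted p = 0.036), as the only 1 of the 26 to pass in that comparison, while 0 passed without a filter, with all 12 samples in one edgeR fit, with the replicate number as a block, or without WT replicate 1, 5 or 6 or Cnp-Cre Jab1fl/fl replicate 3 or 4. DESeq2 and limma-voom called Fkbp5 and Srpk1 there, where they called 13.1% and 10.8% of all genes and edgeR called 7.64%. Double mutant replicate 5 was at the level of WT for Fkbp5. Windows of 1 Mb around the other engineered loci were read in the same way. By edgeR 0 of 14 tested genes around Cops5 on chromosome 1 and 0 of 50 around Cnp on chromosome 11 passed in comparisons of double mutants. At an unadjusted p below 0.05 there were 0 and 1 against Cnp-Cre Jab1fl/fl, beside 5% of all genes. Against WT there were 1 and 7, beside 12.4% of all genes. DESeq2 called 4 genes of the Cnp window against WT, where it called 5.24% of all genes. It called 0 in the other comparisons of double mutants with these windows, and limma-voom called 0.

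**Figure D4:**
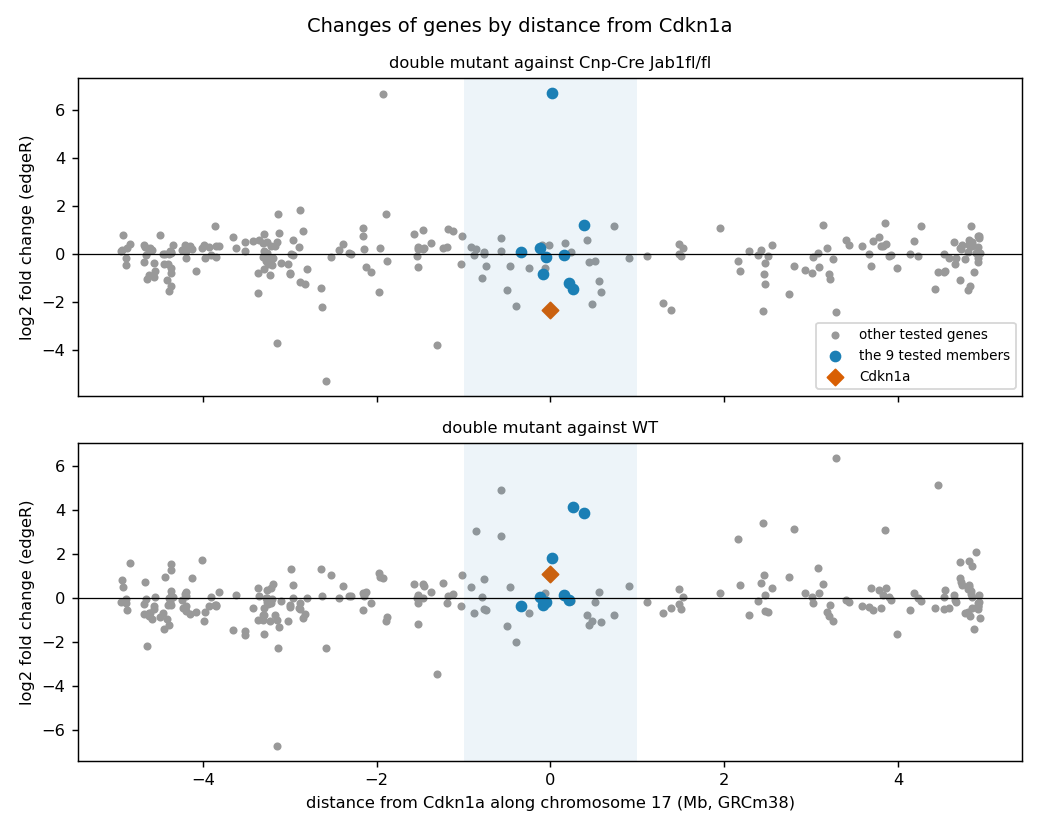
Fitted log2 fold changes (edgeR) of tested genes up to 5 Mb from Cdkn1a against distance along chromosome 17 in Mb, for double mutants against Cnp-Cre Jab1fl/fl (top) and WT (bottom); the shaded band is 1 Mb on either side. Blue points are the 9 tested members, among which Rab44 (6.72) stands highest in the top panel, and Fgd2 (4.17) and Pim1 (3.86) in the bottom panel.

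Relatives of the members at other places in the genome were described by counts. Of 12 SR splicing factors tested, 0 passed by edgeR in the comparisons of double mutants, where Srsf11 had the lowest p against Cnp-Cre Jab1fl/fl (-1.11 ± 0.37, adjusted p = 0.9), and 1 rose in Cnp-Cre Jab1fl/fl against WT, again Srsf11 (1.49 ± 0.37, adjusted p = 0.0334). Of 13 tested genes of the p38 module around Mapk14, 0 passed in double mutants by edgeR, and the phosphatase gene Dusp1, which lies 2528.8 kb from Cdkn1a, rose in Cnp-Cre Jab1fl/fl (1.19 ± 0.30, adjusted p = 0.036). The 7 PIM kinases and regulators gave 0 calls by edgeR in any comparison, although Socs3, a feedback inhibitor of STAT signalling, had values of 3.07 ± 0.62 in double mutants against WT (adjusted p = 0.0874) and 1.96 ± 0.47 against the mean of both other genotypes (adjusted p = 0.246), where the splicing factor Tra2a was next by p (-0.74 ± 0.33, adjusted p = 0.821). Socs3 had 0.8, 1.19, 1.33 and 1.83 CPM in WT and 6.99, 6.18, 6.34 and 4.97 CPM in Cnp-Cre Jab1fl/fl. Double mutants had 8.58, 16.4, 4.98 and 13.7 CPM of Socs3. Every sample of both mutant genotypes was thus above every WT sample. Of all genes, 4.52% were higher without overlap in double mutants against WT and 9.9% in Cnp-Cre Jab1fl/fl against WT. Of the 9 NDR and LATS kinases and coactivators, Stk38l, the closest relative of Stk38, fell in Cnp-Cre Jab1fl/fl by 1.27 on the log2 scale (adjusted p = 0.0465), and of the 6 genes of FGD exchange factors and Cdc42, Fgd5 rose there (2.70 ± 0.66, adjusted p = 0.031). Fgd5 had 75.1, 11, 91.7 and 89 CPM in Cnp-Cre Jab1fl/fl, where endothelial markers summed to 6580, 1040, 3080 and 4820 CPM. The part of endothelial cells in the level of Fgd5 was not tested. No NDR, LATS, FGD or copine gene (5 copines tested) passed in double mutants by edgeR. At an unadjusted p below 0.05 there were 1 SR, 1 NDR or LATS and 1 FGD gene against Cnp-Cre Jab1fl/fl, beside 5% of all genes. Against WT there was 1 gene each of the p38 and PIM lists, beside 12.4%. In Cnp-Cre Jab1fl/fl against WT edgeR called 7.64% of all genes.

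DESeq2 on all 12 samples called Dusp1 and Socs3 in double mutants against WT, where it called 5.24% of all genes. Against the mean of both other genotypes it called Socs3, beside 0.994% of all genes. Limma-voom called 0 of these relatives in double mutants. In Cnp-Cre Jab1fl/fl against WT both tools called Socs3, Dusp1, Mapk12, Srsf11, Stk38l and Fgd5, and DESeq2 also called Cpne8. Of all genes, DESeq2 called 13.1% there and limma-voom 10.8%. Medians over the lists in double mutants against Cnp-Cre Jab1fl/fl were -0.34 for SR factors, 0.06 for the p38 module, 0.19 for PIM kinases and regulators, 0.07 for NDR and LATS kinases, 0.01 for copines and -0.35 for FGD factors. Over all genes the median was 0.02.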

How the data were processed

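RNA was amplified by the authors with a SMART-Seq v4 kit. Trimmed (Trimmomatic 0.32) reads were mapped to GRCm38 by STAR 2.5.3a and summed per gene by featureCounts, with versions from the submitters' processing notes. Strand setting and treatment of multimapping reads are not given in the sources used here. The deposited values are raw counts, not normalized, for 55376 symbols, of which 98.2% were matched to GENCODE release M21 for positions and exon lengths, and 0 entries named no gene.

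Genes reaching 1 CPM in 4 or more of all 12 libraries were kept (17716 genes), CPM used their TMM factors, and TPM used exon lengths of the basic set of that release, which is earlier than the one the authors counted with. Genotypes were compared in edgeR 4.0.16 (R 4.3.3) by its quasi-likelihood test, on the samples of the 2 genotypes or on all 12 for the mean of both others, with Benjamini-Hochberg adjustment over all genes and a threshold of 0.05. Errors of log2 fold changes are SEs, and the fits were tested on simulated data. Alternatives were DESeq2 1.42.0 on all samples, other normalization and filters, limma-voom (limma 3.58.1), a block for the replicate number, 1 edgeR fit over all genotypes, and leaving out each sample. Libraries of a genotype differed beyond sampling noise, and all 12 counted as separate.

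The rule named the members, Cdkn1a, the 3 genes most like each member that passed, and, of neighbours and relatives, those passing or the 2 with the smallest p in each comparison of double mutants. Neighbours and relatives named for the comparison of the other genotypes were chosen after their values were seen. The members and lists were chosen with earlier results of these data known.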

Additional observations from a re-analysis of the deposited data

Results flagged for a closer look

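In double mutants, replicate 3 stood far from the other samples for Fgd2. Its level of 76.4 CPM lay apart from 2.84 to 5.82 CPM in the others, and the gap filled 0.959 of the range of the group, more than Dixon's 95% critical value for 4 samples. On the log2(CPM + 1) scale the gap was 0.809 of the range and below that value. The same sample had the largest sum of microglia markers, and the part of these cells in its Fgd2 level was not tested.

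In Cnp-Cre Jab1fl/fl, replicate 3 was the only sample with reads of Rab44, at 8 counts against 0 in the other 3, so the gap was 1 of the range on both scales. Any count in replicate 3 would give this value, so the flag does not tell how unusual 8 counts are. With 30 groups of values examined on each scale, chance flags about 1 in 20 groups of normally distributed values. This rate does not apply to a group with several samples at 0.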

How the results depend on the processing

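Of 555 values of members under the alternatives, 509 kept their direction and side of the threshold, 7 came to pass it and 39 changed sign. All genes called in double mutants against Cnp-Cre Jab1fl/fl numbered 0, and 152 by DESeq2, 5 with a mean of at least 10 CPM, 1 by limma-voom and 0 to 2 without single samples. Against WT there were 34, and 923 by DESeq2, 20 without a filter, 140 with a mean of at least 10 CPM, 164 with all samples in one fit and 1 to 274 without single samples, the most without double mutant replicate 1. Against the mean of both they were 8, and 175 by DESeq2, 22 with the higher filter, 2 by limma-voom and 2 to 36 without single samples. In Cnp-Cre Jab1fl/fl against WT they were 1354, and 2314 by DESeq2, 859 without a filter and 678 to 1863 without single samples.

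Members called against WT in double mutants rose from 0 to 2 by DESeq2, 1 with all samples in one fit and 1 without double mutant replicate 1, which was Pim1 (range 0 to 1), and to 1 by DESeq2 against the mean of both. In Cnp-Cre Jab1fl/fl against WT they were 1, and 2 by DESeq2 and with all samples in one fit. Neighbours called were 2 by DESeq2 in double mutants against WT, and in Cnp-Cre Jab1fl/fl against WT 1, or 2 by DESeq2, the higher filter and limma-voom, 0 without a filter or with all samples in one fit, and 0 to 2 without single samples. At a mean of at least 10 CPM the scarce members Rab44, Pi16 and Pim1 gave no value.

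Values of members below 1 CPM rested on few reads. In double mutants against Cnp-Cre Jab1fl/fl limma-voom gave 0.33 for Ppil1 and -0.02 for Mapk14, and without single samples Srsf3 ranged from -0.33 to 0.07, Ppil1 from -0.38 to 0.55 and Mapk14 from -0.26 to 0.26. Against WT Kctd20 was 0 without a filter, and the ranges were -0.04 to 0.41 for Ppil1, -0.07 to 0.35 for Kctd20 and -1.23 to 0.84 for Pi16. Against the mean of both they were -0.13 to 0.34 for Ppil1, -1.03 to 1.72 for Fgd2 and -0.47 to 0.05 for Mapk14. In Cnp-Cre Jab1fl/fl against WT Srsf3 was 0.07 with the higher filter, limma-voom gave -0.22 for Ppil1 and 0.03 for Kctd20, and the ranges were -0.24 to 0.08 for Srsf3, -0.43 to 0.50 for Ppil1 and -0.41 to 0.12 for Kctd20. The cause was not tested.

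Replicate numbers are shared by some samples of different genotypes, and the labels do not say what the number stands for. Deviations of same-numbered samples correlated at -0.11 to 0.06, which does not exclude a relation between them. With the number as a block, 1 gene passed in double mutants against WT, 0 against the mean of both, and 660 genes and 0 neighbours in Cnp-Cre Jab1fl/fl against WT. Under the block, values against WT turned to -6.21 for Rab44, -0.05 for Kctd20 and 0.17 for Pi16 in double mutants and to -0.04 for Ppil1 in Cnp-Cre Jab1fl/fl, and that of Ppil1 against the mean of both to -0.18.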
